A study of Homo sapiens with 6 samples.

Results

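The smooth muscle and actin-binding genes that serum response factor (SRF) and TGF-beta are known to induce were followed in 6 libraries labelled as liver cancer cells with an empty vector or with a nuclear form of PD-L1. 10 genes were chosen by symbol: ACTA2, ACTG2, TAGLN, CNN1, CNN2, TPM1, TPM2, MYL9, VCL and ACTN1. 9 of the 10 are among the 27009 genes of the table, and 7 of these 9 had enough reads to be tested. CNN1 and MYL9 did not pass the filter on low values, and ACTG2 was not analysed here. None of the 7 tested genes changed past the threshold, while 3 of 44 tested companion genes of the same programme, MRTFA, ELK3 and CTGF, were higher in the libraries labelled nPD-L1, against 4.04% of all genes tested. The call of CTGF was lost under some alternatives.

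The study sequenced total RNA of Hep3B, an established human liver cancer line, and in both groups the cells lacked their own PD-L1 after knockout of the gene. The 3 vector libraries came from knockout cells with the empty vector. The 3 libraries labelled nPD-L1 came from knockout cells given, by lentivirus in a pCDH-CMV-Puro backbone, a PD-L1 mutated so that it is held in the nucleus, followed by drug selection, so the viral CMV promoter drives it. The design asked which genes differ between cells with and without nuclear PD-L1. The study describes the samples of a group as sequenced independently but does not say whether they were separate cultures, so p-values measure the spread between these libraries, which may be technical.

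SRF is a transcription factor that binds a short DNA element called the CArG box. Its coactivators MRTFA and MRTFB are held back by monomeric actin, and when actin is assembled into filaments they enter the nucleus and switch on genes for actin, its cross-linkers and smooth muscle contraction. A second family of partners, the ternary complex factors ELK1, ELK3 and ELK4, links SRF to growth factor signals. In liver, high ACTA2, TAGLN and CNN1 are best known from activated stellate cells and vascular smooth muscle, while VCL, ACTN1, CNN2, TPM1 and TPM2 are used by most adherent cells.

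The element that names the programme was looked for in the promoters of these genes, from 250 bases before to 50 bases after each transcript start in RefSeq (GRCh38.p14). A CArG box is CC, then a run of A or T bases, then GG, 10 bases in all, and its form is the same on both strands. Only exact matches in these windows were counted, and a match at any listed start of a gene was enough. It was present for 3 of the 8 chosen genes with a promoter entry, CNN2, ACTN1 and ACTG2, and for 13 of 45 companion genes of the programme (28.9%). Among all 27305 genes with an entry, 438 (1.6%) had one. Counted by listed start, 3 of 13 starts of the chosen genes had a box, against 1.29% of all starts. The chosen genes and companions were picked as genes of the SRF programme, so their shares beside that of all genes are no test of it. TAGLN and MYL9 had no entry. Windows of 60 bases are printed here for the measured members that hold a box and for 2 companions, the regulator SRF and the most abundant cytoplasmic actin ACTG1, with the box in capitals. CNN2 is at chr19:1026494-1026553 on the plus strand, ACTN1 at chr14:68977703-68977762 on the minus strand, SRF at chr6:43171209-43171268 on the plus strand and ACTG1 at chr17:81512859-81512918 on the minus strand.
CNN2: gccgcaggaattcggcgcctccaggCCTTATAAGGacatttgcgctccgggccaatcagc
ACTN1: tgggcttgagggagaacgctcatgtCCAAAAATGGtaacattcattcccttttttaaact
SRF: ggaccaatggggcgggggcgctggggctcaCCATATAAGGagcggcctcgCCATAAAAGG
ACTG1: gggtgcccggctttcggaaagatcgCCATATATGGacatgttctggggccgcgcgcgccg
The first base of the box lies at -89 from the transcript start in CNN2, -171 in ACTN1 and -94 in ACTG1, and SRF has a pair at -30 and -10. These positions are from the start whose window is printed, and other listed starts of ACTN1 and SRF have no box. These matches are a description of the letters in these windows, and their use by SRF in these cells was not tested.

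The 6 libraries held 17427519 to 22253295 reads on genes. Values below are scaled reads, the reads of a gene divided by the size factor of its library. Vector replicate 2 stood apart from the other 5 libraries: its deviation from the mean of all 6 libraries fell with gene length (Spearman correlation -0.37 across genes, which are not independent replicates), against -0.09 to 0.28 in the others. CD274, the PD-L1 gene, was at 28.3, 38.4 and 47.8 scaled reads in the vector libraries and at 16.8, 19.2 and 30.9 in those labelled nPD-L1 (log2 fold change -0.77 ± 0.34 SE, adjusted p = 0.338 from limma). The transcript given to the cells was thus not seen as a higher CD274 value, and "labelled nPD-L1" is used for that group throughout. The keratin genes KRT8 and KRT18 were at 15100 to 39522 scaled reads in every library. The hepatocyte genes ALB, APOA1, APOB and TTR were at 0 to 2.89, so these defining markers of the labelled liver lineage were absent or nearly so. SERPINA1 and EPCAM, from the same marker list, were low but present, at 7.91 to 41.4 and 10.1 to 26.3 scaled reads. HNF4A, a liver transcription factor, was at 6.24 to 19.2 scaled reads in the vector libraries and 33.8 to 51.6 in the others. Its vector values rest on 6 to 19 reads a library. It passed the filter on low values only through the libraries labelled nPD-L1, so no test is given. AFP was not analysed here. Of the stromal markers, PDGFRA, PDGFRB and DCN were at 0 to 9.10 scaled reads, LUM was at 99.9 to 182 and the entries of RGS5 at 8.07 to 40.5 with no call for either gene, while COL1A1 was higher in the libraries labelled nPD-L1 (log2 fold change 2.84 ± 0.19 SE, adjusted p = 7.99e-06 from limma). The 6 stromal marker symbols in the table summed to 229 to 289 scaled reads in the vector libraries and 641 to 708 in the others. COL1A1 alone had a mean of 65.3 in the vector libraries and 466 in the others, and LUM had 131 and 137. Of 4 tested table entries, which include both of RGS5, 1 was called by limma, against 4.96% of all genes tested. The part of these markers in the results below was not tested. The 3 blood and endothelial markers in the table summed to at most 6.78 scaled reads in any library. In bulk libraries, fewer cells of a type and less RNA per cell cannot be told apart.

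Per kilobase of the gene length in the table, the order of the members over all 6 libraries ran from TPM2 (748 to 1188 scaled reads per kilobase) through ACTN1 (538 to 717), CNN2 (588 to 645), VCL (332 to 540) and TPM1 (262 to 326) to ACTA2 (17.2 to 28.5) and TAGLN (3.75 to 18.7), with MYL9 (0 to 0.737) and CNN1 (0 to 1.75) last and not ordered between themselves. Library values also overlapped between the neighbours ACTN1 and CNN2, and ACTA2 and TAGLN, so these pairs were not separated by their spread. The order between genes and the family shares below also depend on the gene length in the table. It may differ from the length of the transcripts in these cells, which was not tested. The 5 genes used by most adherent cells were each at 262 scaled reads per kilobase or more in every library. The 4 genes best known from smooth muscle were all at 28.5 or less. This gap separates the members in both groups, as the plot of the members by library shows.

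**Figure D1:**
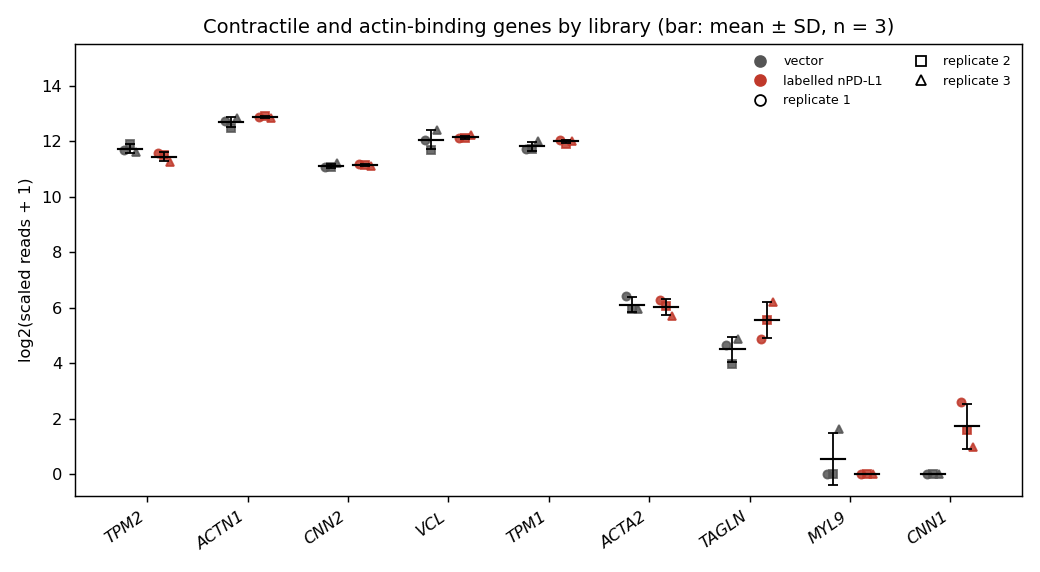
Level of each contractile and actin-binding gene, as log2(scaled reads + 1) on the vertical axis, in the 3 vector libraries (grey) and the 3 libraries labelled nPD-L1 (red), with the mean and SD of each group in black. ACTA2, TAGLN, MYL9 and CNN1 lie far below the other 5 genes in both groups. Of the tested genes, TAGLN and TPM2 have groups that do not overlap, as in 20.6% of all genes tested. CNN1, not tested, has 0 reads in each vector library and 6, 2 and 1 in the others.

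None of the 7 tested members was called by limma at an adjusted p under 0.05, against 4.96% of the 15076 genes tested. The edgeR and DESeq2 tests on recovered reads called 0 members as well. At an unadjusted p under 0.05, 2 members passed, TAGLN above and TPM2 below, against 14.2% of all genes. The same 2 had groups that did not overlap, against 20.6% of all genes, of which 12% lay wholly above the vector libraries and 8.54% wholly below. The median log2 fold change of the 7 was 0.10, beside -0.02 for all genes tested. For 6 of the 7 the 95% interval lay inside 2-fold either way, as it did for 77.9% of all genes, and TAGLN was the exception.

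ACTA2 (ENSG00000107796, chr10:88935074-88991339, minus strand, hg38) encodes alpha smooth muscle actin, the classic marker of myofibroblasts. It was at 84.8, 61.0 and 61.3 scaled reads in vector replicates 1 to 3 and at 77.3, 65.7 and 51.1 in the libraries labelled nPD-L1. Both groups covered much the same range. A log2 fold change of -0.09 ± 0.24 (SE, adjusted p = 0.895 from limma) was obtained, and its 95% interval spanned a ratio of 0.65 to 1.36. ACTA2 lies opposite to STAMBPL1 over 40080 bases and to FAS over 758, and the strand setting of the counting is not given in the sources used here. STAMBPL1 was at 273 to 549 scaled reads, above ACTA2 in every library, so the ACTA2 value is uncertain to the extent that its reads were shared.

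Within the actin family, per kilobase, ACTA2 made up 0.0426% ± 0.0099 (SD, n = 3) of the vector total and 0.0414% ± 0.0048 of that in the libraries labelled nPD-L1 (exact permutation test, two-sided, p = 0.8, where the smallest p that 3 against 3 allows is 0.1). The cytoplasmic actins ACTG1 and ACTB held nearly everything, with 58.3% and 41.7% in the vector libraries. ACTB was at 80264 ± 3102 scaled reads (SD, n = 3) in the vector libraries, with a log2 fold change of -0.10 ± 0.12 (adjusted p = 0.776 from limma). ACTG1 had -0.05 ± 0.12 (adjusted p = 0.876 from limma), a sign that turned to 0.02 when the gene length trend was removed. ACTA1 and ACTC1, the skeletal and cardiac actins, were at 12.1 scaled reads or less.

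TAGLN (ENSG00000149591, chr11:117199321-117204782, plus strand, hg38) encodes transgelin or SM22 alpha, a calponin-related protein that bundles actin filaments and an early smooth muscle marker. It was at 24.2, 14.7 and 28.1 scaled reads in the vector libraries and at 28.6, 46.5 and 73.3 in those labelled nPD-L1. The groups did not overlap, but the lowest library of the second group barely exceeded the highest vector library, and that group was itself widely spread. This gave a log2 fold change of 1.06 ± 0.39 (SE, unadjusted p = 0.0202, adjusted p = 0.211 from limma), with a 95% interval from 1.15 to 3.79 as a ratio. The adjusted p ranged from 0.0814 to 0.689 over 19 alternatives. These values rest on 13 to 76 reads a library, and TAGLN overlaps the opposite-strand gene PCSK7 by 446 bases. TAGLN was 0.0829% ± 0.0275 (SD, n = 3) of the transgelin family per kilobase in the vector libraries and 0.196% ± 0.107 in the others (exact permutation test, two-sided, p = 0.2). TAGLN2, the form with the widest expression, made up 99.7% or more in every library, at 14997 to 18461 scaled reads.

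The 5 genes whose levels over the 6 libraries most resembled those of TAGLN, in log2(scaled reads + 1), were BTBD10 (Pearson r 0.995), PHACTR2 (0.994), VPS35L (0.989), SAP30L-AS1 (0.987) and FAM199X (0.987). These r values are a description over 6 points that share depth and size factors, and 269 genes (1.79%) had an r above 0.9. None of the 5 was called, with adjusted p from 0.302 to 0.752 from limma. They differed in size, since BTBD10 spanned 771 to 864 scaled reads and SAP30L-AS1 spanned 12.4 to 65.6.

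CNN1 and CNN2 encode calponins, which bind actin and damp the myosin ATPase. CNN1 (ENSG00000130176, chr19:11538717-11550323, plus strand, hg38), the smooth muscle form, had 0 reads in each vector library and 6, 2 and 1 reads in the libraries labelled nPD-L1. A count of 0 allows up to 3 reads in a library, only 1 of the 3 nonzero counts is above that, and no fold change was computed. CNN2 (ENSG00000064666, chr19:1026581-1039068, plus strand, hg38), the form of non-muscle cells, was at 2145, 2159 and 2351 scaled reads in the vector libraries and at 2319, 2271 and 2193 in the others. The groups overlapped and their means lay close together, 2218 ± 115 and 2261 ± 63.5 (SD, n = 3). On the log2 scale the difference was 0.03 ± 0.09 (adjusted p = 0.919 from limma), and its 95% interval, a ratio of 0.88 to 1.18, was the narrowest of the 7. The sign turned to -0.02 with upper-quartile scaling. Together with CNN3, an actin-binding calponin of many tissues, CNN2 made up nearly all of the family, with a share per kilobase of 54.0% ± 4.1 against 50.1% ± 2.2 (SD, n = 3, exact permutation test, two-sided, p = 0.2). CNN3 itself had a log2 fold change of 0.25 (adjusted p = 0.392 from limma), which passed the threshold at 0.37 without vector replicate 2 (adjusted p = 0.0276 from limma).

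TPM1 and TPM2 encode tropomyosins, coiled coils that lie along actin filaments and gate their access to myosin and cofilin. TPM1 (ENSG00000140416, chr15:63042632-63071915, plus strand, hg38) was at 3396, 3376 and 4093 scaled reads in the vector libraries and at 4194, 3856 and 4139 in those labelled nPD-L1. Vector replicate 3 lay within the range of the other group. For TPM1 the log2 fold change came to 0.17 ± 0.11 (adjusted p = 0.549 from limma, 95% interval a ratio of 0.96 to 1.33). TPM1-AS, a gene named after its values were seen, lies antisense over 3354 bases of TPM1 and was at 2.26 to 7.28 scaled reads in the vector libraries and 17.2 to 36.1 in the others. It passed the filter on low values through the second group alone, so no test is given. Without a stated strand setting its reads and those of TPM1 cannot be told apart, and its level is far below that of TPM1.

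TPM2 (ENSG00000198467, chr9:35681992-35690121, minus strand, hg38) was at 3289, 3859 and 3091 scaled reads in the vector libraries and at 3082, 2892 and 2430 in those labelled nPD-L1. All 3 values of the second group were below the vector values, although the nearest pair differed by little. TPM2 thus had a log2 fold change of -0.29 ± 0.12 (unadjusted p = 0.0409, adjusted p = 0.315 from limma, 95% interval a ratio of 0.68 to 0.99), and it stayed between -0.36 and -0.19 over 19 alternatives. Among the 4 tropomyosin genes per kilobase, TPM1 was at 7.78%, 7.56% and 8.82% in the vector libraries and at 9.60%, 9.74% and 10.8% in the others. These shares did not overlap, and their exact permutation p was the smallest possible, 0.1 (two-sided, 0.32 after Benjamini-Hochberg adjustment over the 8 shares tested). With the gene length trend removed, TPM1 itself had a log2 fold change of 0.046, and the shares were not computed that way. TPM2 was at 30.2% ± 3.9 and 27.4% ± 2.0 (SD, n = 3, exact permutation test, two-sided, p = 0.4). TPM3 was the most abundant at 36.3% to 38.6%, and TPM4 held 21.3% to 27.5%, with overlapping groups for both shares.

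**Figure D2:**
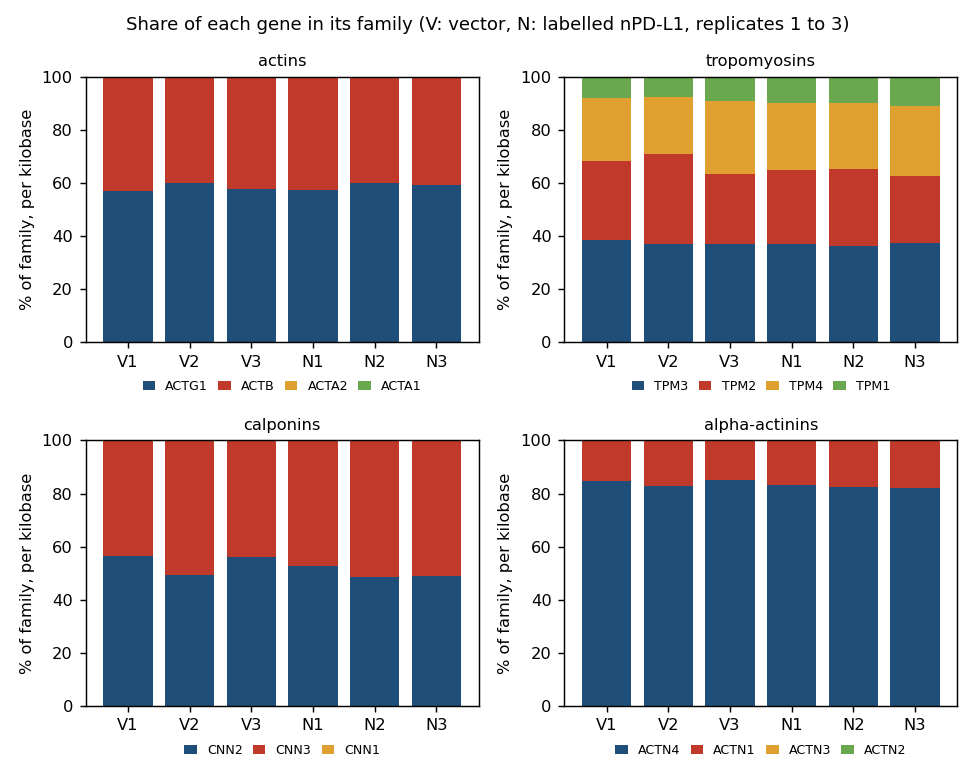
Share of each gene in its family, in percent of the summed scaled reads per kilobase, stacked for the 3 vector libraries (V1 to V3) and the 3 libraries labelled nPD-L1 (N1 to N3). ACTA2 and CNN1 are too small to see, TPM1 is at 7.56% to 8.82% in the vector libraries and 9.60% to 10.8% in the others, and ACTG1, TPM3 and ACTN4 are the most abundant genes of their families in all 6 libraries.

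MYL9 (ENSG00000101335, chr20:36541484-36551447, plus strand, hg38) encodes the regulatory light chain of smooth muscle myosin, whose phosphorylation starts contraction. It had 2 reads in vector replicate 3 and 0 in the other 5 libraries. Its relatives MYL12A and MYL12B, the light chains of non-muscle myosin, were present at 1485 to 2048 and 2663 to 3751 scaled reads, and neither was called (log2 fold changes -0.20 and -0.12, adjusted p = 0.536 and 0.743 from limma). MYL12B made up 71.8% to 76.2% of the family per kilobase in all 6 libraries.

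VCL and ACTN1 act where filaments meet the membrane. VCL (ENSG00000035403, chr10:73995193-74121363, plus strand, hg38) encodes vinculin, which ties actin to talin in focal adhesions. It was at 4253, 3320 and 5397 scaled reads in the vector libraries and at 4431, 4440 and 4730 in those labelled nPD-L1. The second group lay wholly inside the range of the first, with an SD of 170 against 1040 scaled reads. VCL had a log2 fold change of 0.10 ± 0.15 (adjusted p = 0.827 from limma, 95% interval a ratio of 0.84 to 1.35), and it was -0.08 without vector replicate 2. ACTN1 (ENSG00000072110, chr14:68874143-68979440, minus strand, hg38) encodes an alpha-actinin that cross-links filaments in stress fibres. It was at 6705, 5717 and 7317 scaled reads in the vector libraries and at 7576, 7619 and 7303 in the others. The groups touched, since vector replicate 3 was above 1 of the 3 libraries labelled nPD-L1. ACTN1 had a log2 fold change of 0.20 ± 0.11 (adjusted p = 0.501 from limma, 95% interval a ratio of 0.96 to 1.36). ACTN4, its close relative, made up 82.3% to 84.9% of the alpha-actinins per kilobase, and ACTN1 was at 15.8% ± 1.1 in the vector libraries and 17.4% ± 0.6 in the others (SD, n = 3, exact permutation test, two-sided, p = 0.2).

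Vector replicates 2 and 3 deviated in opposite directions for VCL and ACTN1. Both genes are long in the table (9992 and 10626 bases), and they deviated from the vector mean by -0.35 and -0.20 on the log2 scale in vector replicate 2 and by 0.35 and 0.16 in vector replicate 3. The shorter TPM2 (3248 bases) deviated the other way, by 0.18 and -0.14. The 3 deviations of a gene from the vector mean sum to 0. Vector replicate 1 was near that mean for VCL, ACTN1 and TPM2 (0.005, 0.035 and -0.047). Opposite signs in the other 2 vector libraries were therefore bound to follow for these genes. Length did not order all members. TAGLN (3917 bases) was at -0.53 and 0.37, ACTA2 (2976 bases) at -0.16 and -0.15, and the longest, TPM1 (12876 bases), at -0.10 and 0.18. With the gene length trend removed from each library, an alternative chosen after seeing the data, 0 members were called. The log2 fold changes were then -0.003 for VCL, 0.089 for ACTN1 and 0.046 for TPM1. TAGLN had 1.09, CNN2 0.071, ACTA2 -0.021 and TPM2 -0.226.

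**Figure D3:**
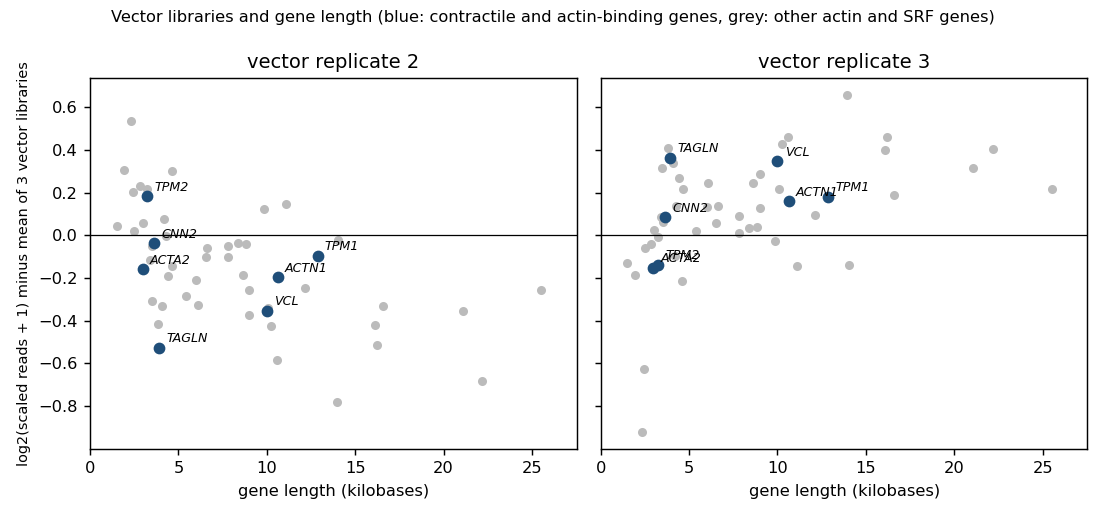
Deviation of vector replicate 2 (left) and vector replicate 3 (right) from the mean of the 3 vector libraries, in log2(scaled reads + 1), against gene length in kilobases, for the tested contractile and actin-binding genes (blue, named) and the other tested genes of the programme (grey). VCL and ACTN1 are below 0 in replicate 2 and above 0 in replicate 3, and TPM2 is the reverse. The 3 vector deviations of a gene sum to 0, so the left and right values are not independent.

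51 companion genes of the 5 lists described here are in the table and 44 were tested. 3 of the 44, MRTFA, ELK3 and CTGF, were higher and 0 were lower in the libraries labelled nPD-L1 at an adjusted p under 0.05 from limma, against 4.04% and 0.922% of all genes. At an unadjusted p under 0.05 from limma, 7 of the 44 were higher and 1, SYNPO2, was lower, against 14.2% of all genes in either direction. Their median log2 fold change was 0.07. Over all 6 lists that were drawn up, 6 of 59 tested genes were higher and 0 were lower. edgeR and DESeq2 on recovered reads gave the same calls. The calls were 2 of 6 among SRF and its partners and 1 of 19 among adhesion and stress fibre genes. No gene was called among 2 other actins, 9 relatives of the members and 8 smooth muscle contractile genes by limma, edgeR or DESeq2, with 0, 0 and 3 at an unadjusted p under 0.05 from limma. In the last list MYH11, the smooth muscle myosin heavy chain, was at 8.68 to 18.7 scaled reads.

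**Figure D4:**
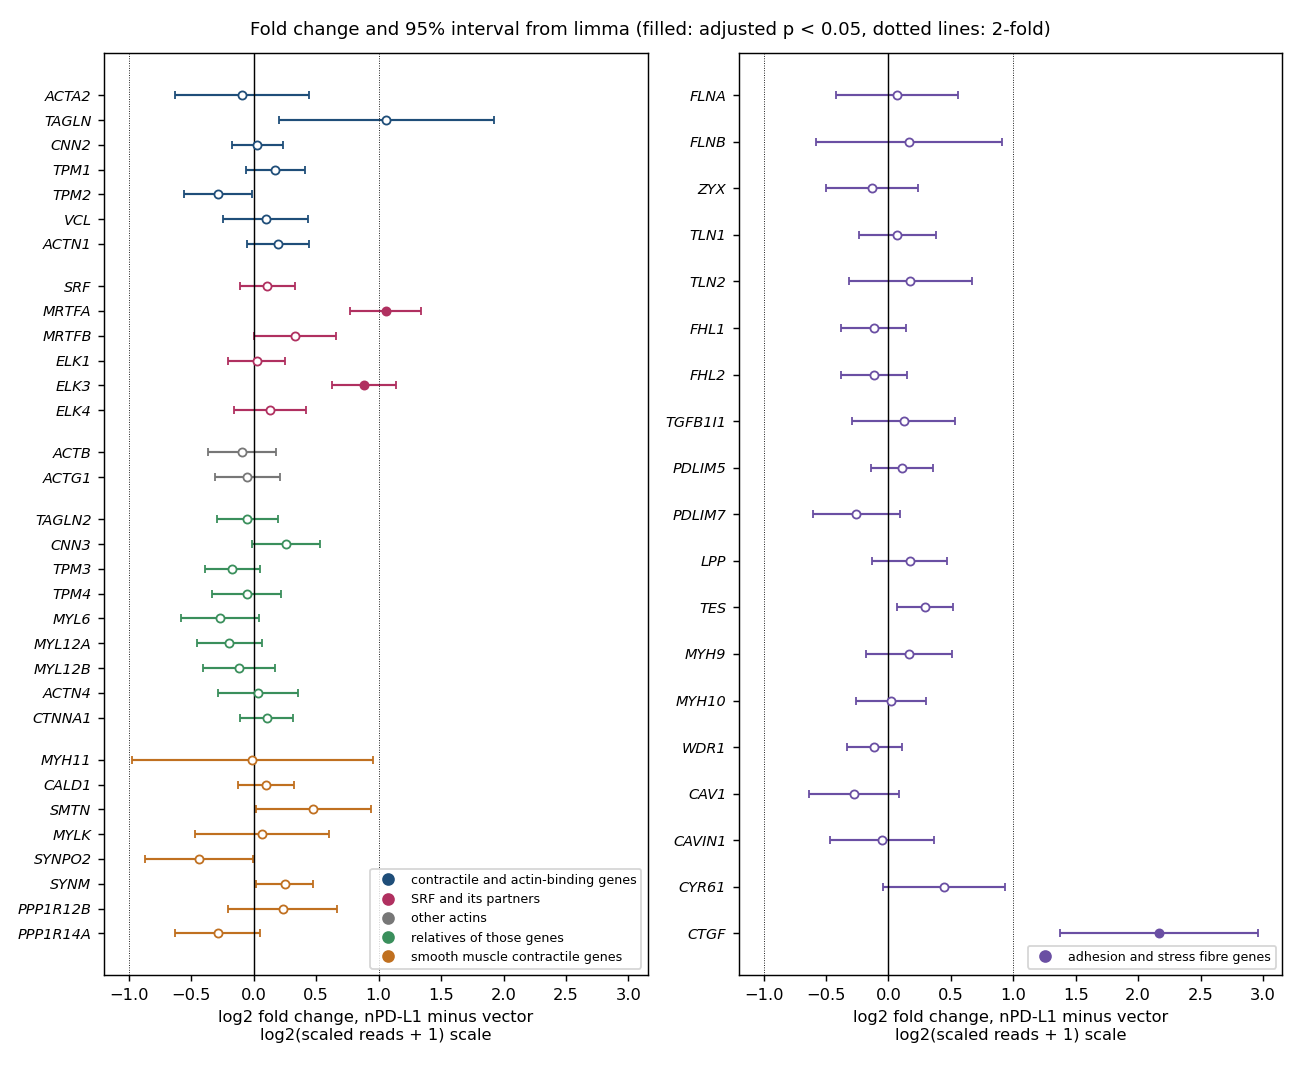
Log2 fold change from limma (libraries labelled nPD-L1 minus vector, log2(scaled reads + 1) scale) with its 95% interval for the 7 tested contractile and actin-binding genes and the 44 tested companion genes, coloured by list, with filled points for an adjusted p under 0.05. MRTFA, ELK3 and CTGF are filled, and every one of the 7 contractile and actin-binding genes is open.

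SRF itself was at 1078, 1118 and 991 scaled reads in the vector libraries and at 1113, 1115 and 1206 in the others. The groups overlapped, with a log2 fold change of 0.11 ± 0.10 (adjusted p = 0.696 from limma). MRTFA, the actin-sensing coactivator, was at 532, 481 and 537 against 1279, 1001 and 969 scaled reads. Its groups were far apart, and the log2 fold change of 1.06 ± 0.13 passed the threshold (adjusted p = 0.000602 from limma). MRTFB, the second coactivator, had a log2 fold change of 0.33 ± 0.15 and did not pass (adjusted p = 0.349 from limma), although its groups did not overlap. ELK3, a ternary complex factor that can repress as well as activate, was at 1087, 1033 and 1328 against 2188, 1970 and 2185 scaled reads, and rose by a log2 fold change of 0.89 ± 0.12 (adjusted p = 0.00105 from limma). Its relatives ELK1 and ELK4 had 0.02 and 0.13 and were not called.

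CTGF (now CCN2), a secreted matrix protein that responds to SRF, YAP and TGF-beta, was at 1270, 1412 and 513 scaled reads in the vector libraries and at 4304, 4302 and 4519 in the others. The groups were well apart, but vector replicate 3 was far below the other 2 vector libraries. The log2 fold change was 2.17 ± 0.34 (adjusted p = 0.00884 from limma), and it lost its call without vector replicate 2 (2.44, adjusted p = 0.108 from limma) and with no filter on low values (2.17, adjusted p = 0.153 from limma). CYR61 (now CCN1), its relative, had 0.45 (adjusted p = 0.421 from limma).

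**Figure D5:**
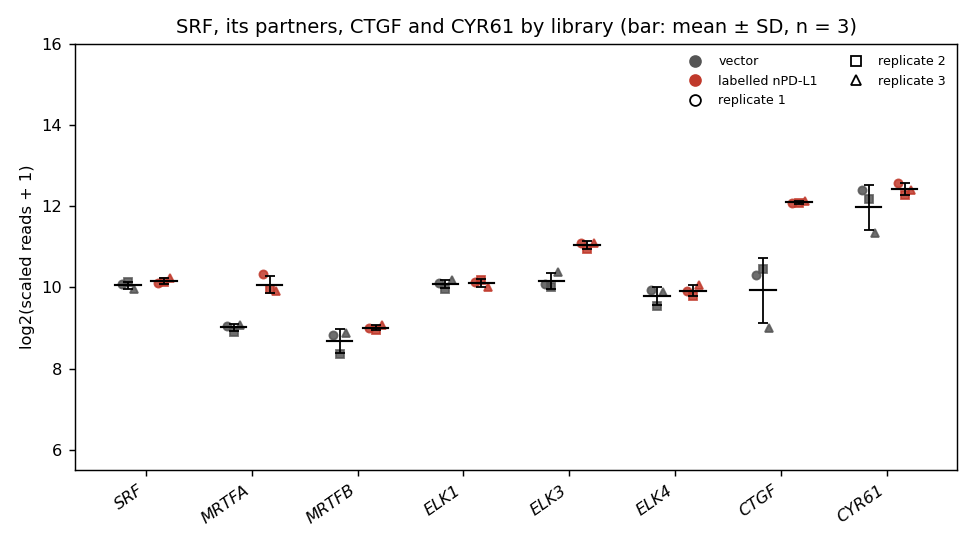
Levels of SRF, its partners, CTGF and CYR61, as log2(scaled reads + 1), in the 3 vector libraries (grey) and the 3 libraries labelled nPD-L1 (red), with the mean and SD of each group in black. MRTFA, MRTFB, ELK3 and CTGF show groups that do not overlap, as in 20.6% of all genes tested. SRF, ELK1, ELK4 and CYR61 show groups that overlap.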

How the data were processed

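RNA of 6 libraries labelled Hep3B, 3 labelled vector and 3 labelled nPD-L1, was sequenced by a company, and per the labels HISAT2 (version 2.0.5), CASAVA and hg38 were used. The counter, its strand setting and the annotation are not given in the sources used here. The authors deposited, as raw counts, a signal for each gene and library: reads divided by 1 size factor per library. All values were whole multiples of 1 step per library within 4.5e-05 of a read, although in the libraries labelled vector replicate 1 and nPD-L1 replicate 2 that step is close to 1. The authors' deposited log2 fold change, p-value and adjusted p-value columns were not used, and neither were their group means.

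limma (version 3.58.1, R 4.3.3; eBayes with trend and robust moderation) was fitted to log2(value + 1) of the 15076 genes that reached 10 scaled reads in 3 or more libraries, with Benjamini-Hochberg adjustment over all of them and a threshold of 0.05. Fold changes are on that scale, which understates low genes. edgeR (version 4.0.16, quasi-likelihood) and DESeq2 (version 1.42.0) were run on recovered reads of all 6 libraries. Shares used values per gene length and exact permutation tests (scipy 1.17.1). On simulated data for this comparison (14817 genes), limma recovered 71.4% of 98 genes changed 2-fold and 94% of 100 changed 4-fold, with 4.65% of 172 calls false. The simulated reads were drawn independently for each gene and library, without a gene length trend. These rates hold for that setting and may differ in the data.

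Named were the 10 members, CD274, SRF, MRTFA, MRTFB, ACTB, ACTG1, relatives used in shares, called companions of the lists described, and the 5 genes most like the member of smallest p. The members and lists were chosen with earlier results of these data known. Some results for single genes and 1 gene list are not reported here. Other companions are named as examples of their lists.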

Additional observations from a re-analysis of the deposited data

How the results depend on the processing

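No member was called under any alternative that kept the adjusted threshold, and an unadjusted p under 0.05 gave 1 higher and 1 lower. All 59 tested companion genes went from 6 higher and 0 lower to 12 and 1 at an unadjusted p, and to between 6 and 7 higher and 0 and 1 lower with 1 library left out, the lower one being CAV1 without vector replicate 2 (-0.44, adjusted p = 0.0437 from limma). All genes went from 609 higher and 139 lower to 306 and 68 with at least 2-fold, 1436 and 710 at an unadjusted p, and 331 to 791 and 76 to 242 with 1 library left out. Same-numbered libraries correlated in their deviations by -0.01, 0.23 and 0.13, so the numbers were not taken as pairs. A replicate block gave 927 higher and 258 lower over all genes (242 lower with the gene length trend also removed), 0 members, and an adjusted p of 0.127 (0.13 with the trend removed) for CTGF and 0.0384 for SMTN from limma. With block and trend removal, CNN3 passed at 0.34 (adjusted p = 0.0205 from limma) and TES at 0.31 (0.0453). Without vector replicate 3, SMTN passed at 0.69 (0.0461).

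Signs turned for ACTA2 (-0.23 to 0.06 with 1 library left out; 0.061 without vector replicate 1 and 0.063 without nPD-L1 replicate 3), CNN2 (-0.023, upper-quartile scaling), VCL (-0.003 with the trend removed, with or without block; -0.08 to 0.27 with 1 library left out, the lowest without vector replicate 2) and ACTG1 (0.02 with the trend removed, with or without block; -0.098 to 0.009 with 1 library left out, the highest without nPD-L1 replicate 3), all far from the threshold. The ACTA2 share difference ranged from -0.0042 to 0.0045 percentage points with 1 library left out (0.00135 without nPD-L1 replicate 3), that of MYL9 from -0.0192 to 0, TPM2 from -4.72 to -0.787, CNN2 from -6.29 to -2.70, TAGLN from 0.0561 to 0.162 and CNN1 from 0.041 to 0.0995. The causes were not tested. Of 543 results under alternatives, 504 kept their direction and side of the threshold or stayed within 1.5 times. Depth limits CNN1 and MYL9, with 6 reads or fewer a library, and TAGLN, with 13 to 76.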

Other observations

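Across all genes tested that have a CArG box in a RefSeq promoter, 10 of 153 were higher and 1 was lower in the libraries labelled nPD-L1 at an adjusted p under 0.05 from limma (7.19% called), beside 5.44% of the 10490 tested genes with a promoter entry. Their median log2 fold change was 0.03, and that of all genes tested -0.02. MRTFA, ELK3 and CTGF, which were called, had no box in the windows searched, which says only that these letters are not in these windows. No test was made of whether genes with a box differ from other genes.

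In the lists described here, the companions with an unadjusted p under 0.05 from limma that were not called were MRTFB, SMTN, SYNM, SYNPO2 and TES. SYNPO2, an actin-bundling protein of muscle, was at 97.7 to 120 scaled reads in the vector libraries and 68.8 to 91.6 in the others (log2 fold change -0.44, adjusted p = 0.333 from limma).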
